A study of Mus musculus with 6 samples.

Results

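The 10 genes described here encode the transforming growth factor beta (TGF-beta) ligands, their receptors, and the family of latent TGF-beta binding proteins. They were taken by gene symbol from a list of names, which was chosen with earlier results of these data known. The list holds the ligands Tgfb1, Tgfb2 and Tgfb3 and the receptors Tgfbr1, Tgfbr2 and Tgfbr3. It also holds the latent TGF-beta binding proteins Ltbp1, Ltbp2, Ltbp3 and Ltbp4. All 10 were found among the 50385 genes of the deposited table, and all 10 passed the filter on low counts that left 20472 genes for testing. RNA was sequenced from hearts of male Mdx/Utrn dKO mice, which lack dystrophin and its relative utrophin and serve as a model of the cardiomyopathy of Duchenne muscular dystrophy. Of the 6 libraries, 3 came from mice given Setanaxib, described by the series as a Nox4 inhibitor, by daily oral gavage at 60 mg/kg/day for 12 weeks. The other 3 libraries came from mice of the same genotype, sex and age that received corn oil, the vehicle, on the same schedule. Mice were 2 to 3 months old when treatment began, and every library carries both mutations, so the values compare drug and vehicle within dystrophic hearts. The series asks what Nox4, an enzyme that makes hydrogen peroxide, contributes to this cardiomyopathy.

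TGF-beta is secreted as an inactive complex in which the ligand stays wrapped in its own propeptide. Most cells link that propeptide to a latent TGF-beta binding protein, which anchors the complex to fibrillin and fibronectin fibres of the matrix, and integrins or proteases later free the ligand. Free ligand binds the type II receptor, which phosphorylates the type I receptor, which in turn phosphorylates SMAD proteins that carry the signal to the nucleus. In the heart, TGF-beta signalling is known for turning fibroblasts into matrix-producing cells, and in mouse muscular dystrophy a variant of Ltbp4 is known to modify the severity of disease.

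Depth was similar across libraries, with 110803307 to 142693848 estimated counts in setanaxib libraries and 121014814 to 154003318 in vehicle libraries. Each member held at least 1088 estimated counts in every library, so counting error was small beside the spread between libraries. Cardiomyocyte markers summed to 30059 to 41921 CPM (counts per gene set to a common depth) in setanaxib libraries and 36441 to 39133 CPM in vehicle libraries, as the label of heart requires. Setanaxib replicate 3 stood apart from the other 5 libraries. Its lung epithelium markers summed to 647 CPM against 0 to 20.6 CPM in the others, its atrial myocyte markers to 2914 CPM against 66.5 to 568 CPM, and its adipocyte markers to 59.0 CPM against 0 to 1.77 CPM. Where it moved the value of a member or the count of a pathway list by over 1.5 times, or changed a call, the value without it is given as well. The libraries carry separate numbers in the labels, which do not state that each is its own animal, so every p-value here describes the scatter among libraries, part of which may be technical.

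The sequences directly upstream of the transcription start are shown for 2 ligands and for the binding protein with the lowest p-value, since these genes were lower together in the setanaxib libraries and their start regions differ. They are from RefSeq on GRCm38.p6, whereas the submitters' notes name GRCm39, and 8 of the 10 members had an entry. Tgfb1 lies on the plus strand, and its window of 250 bases spans chr7:25686752-25687001. Tgfb2 lies on the minus strand, with its window of 250 bases at chr1:186705990-186706239. The stretch of Ltbp2, on the minus strand at chr12:84876559-84876741, holds 183 bases, because the other 67 bases of its window are transcribed from another start site. All 3 read 5′ to 3′ towards the gene. Capitals mark a match to one of 3 motifs on either strand. The GC box was searched for as GGGCGG, a motif of housekeeping and growth factor genes. The TATA box, which sets a start site in some genes, was searched for as TATAAA. The SMAD box, the short element that SMAD proteins can bind, was searched for as CAGAC, and no marked match overlaps another.
Tgfb1: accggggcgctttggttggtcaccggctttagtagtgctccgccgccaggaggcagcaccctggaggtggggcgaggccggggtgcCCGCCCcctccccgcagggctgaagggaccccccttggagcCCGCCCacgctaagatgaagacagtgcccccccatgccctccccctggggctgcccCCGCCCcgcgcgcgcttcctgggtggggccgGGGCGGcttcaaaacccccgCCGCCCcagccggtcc
Tgfb2: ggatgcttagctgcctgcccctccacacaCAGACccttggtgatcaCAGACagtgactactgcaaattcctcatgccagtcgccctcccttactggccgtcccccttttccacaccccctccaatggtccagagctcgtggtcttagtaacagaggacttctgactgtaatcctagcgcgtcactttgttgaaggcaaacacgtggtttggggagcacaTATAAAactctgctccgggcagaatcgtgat
Ltbp2: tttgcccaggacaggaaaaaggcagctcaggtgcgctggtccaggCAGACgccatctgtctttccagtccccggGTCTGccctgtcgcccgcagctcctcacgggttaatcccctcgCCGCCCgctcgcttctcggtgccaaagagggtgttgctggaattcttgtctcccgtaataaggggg
The Tgfb1 stretch held 5 GC boxes and none of the other motifs. The Tgfb2 stretch held no GC box, 1 TATA box that begins 31 bases before the start and 2 SMAD boxes. The Ltbp2 stretch held 2 SMAD boxes and 1 GC box. Among 32851 RefSeq windows of 250 bases, 32.7% held a GC box, 12.4% a TATA box and 42.2% a SMAD box, so a SMAD box alone is common. AP-1 sites, searched for as TGANTCA and present in 6.75% of windows, were in none of these 3 stretches. The same held for cAMP response elements, searched for as TGACGTCA and present in 1.55% of windows. A match of letters is a description of sequence and does not show that a factor binds there.

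Across the family, the ligands and Ltbp2 were lower with setanaxib, Tgfbr3 and Ltbp1 were higher, and Ltbp3, Ltbp4, Tgfbr1 and Tgfbr2 overlapped between the groups. No member passed edgeR's quasi-likelihood test with Benjamini-Hochberg adjustment over all genes at 0.05, a rule that called 1 gene of 20472 (0.00488%). DESeq2, run as an alternative, called 494 of 20340 genes (2.43%), and 3 members were among them: Tgfb1, Ltbp2 and Tgfbr3. At an unadjusted edgeR p below 0.05, 4 members were lower, beside 4.69% of all genes, and 1 was higher, beside 3.76%. For 4 members every setanaxib library lay below every vehicle library, a pattern seen in 9.46% of all genes, and for 2 members every setanaxib library lay above, as in 8.11% of all genes. These 6 were the same under each scaling tried except by library totals alone, where Tgfb2, Tgfb3 and Ltbp1 overlapped and Tgfb1, Ltbp2 and Tgfbr3 did not. The 10 log2 fold changes, setanaxib minus vehicle, had a median of -0.17, beside 0.01 over all genes tested.

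**Figure D1:**
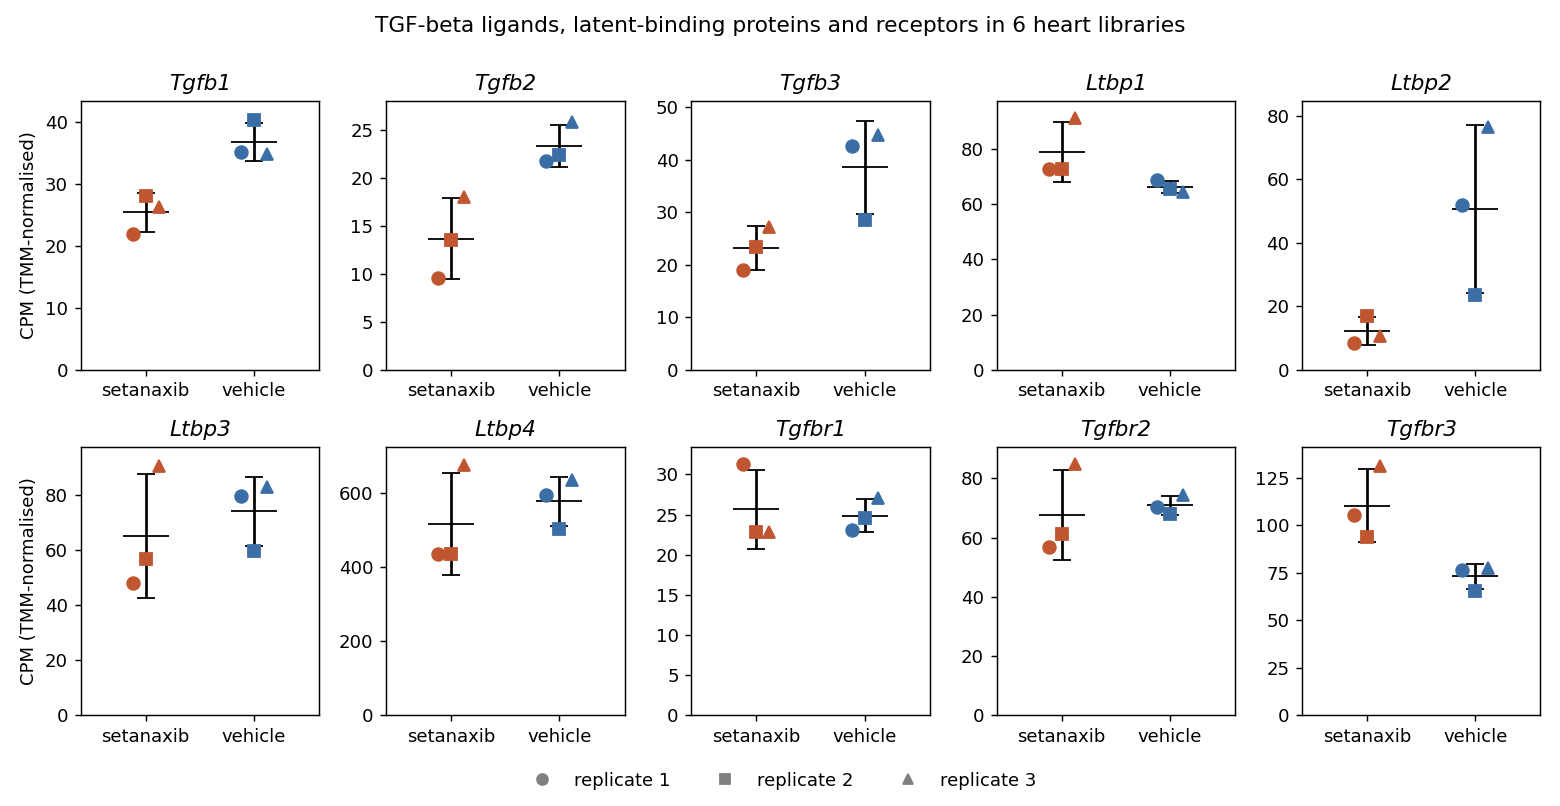
CPM, normalised by trimmed mean of M values (TMM), of each of the 10 genes in 3 setanaxib libraries (orange, left of each panel) and 3 vehicle libraries (blue, right); marker shapes give the replicate number, which pairs nothing, and bars give the mean and SD. The 3 ligands and Ltbp2 lie lower in all setanaxib libraries, Ltbp1 and Tgfbr3 lie higher, and the other 4 genes overlap.

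Tgfb1 (ENSMUSG00000002603) encodes the ligand best known for restraining inflammation and driving fibrosis, made among others by macrophages, fibroblasts and platelets. It was at 21.8, 28.1 and 26.2 CPM in setanaxib replicates 1, 2 and 3, against 35.1, 40.3 and 34.8 CPM in vehicle replicates 1, 2 and 3. The highest setanaxib library, at 28.1 CPM, stayed below the lowest vehicle library, at 34.8 CPM. Means were 25.4 ± 3.20 CPM with setanaxib and 36.8 ± 3.09 CPM with vehicle (SD, n = 3 each). The log2 fold change was -0.54 (SE 0.13), with an adjusted p of 0.383 by edgeR and 0.00959 by DESeq2. The gene was 248th of 20472 by edgeR's p, the unadjusted value being 0.00467. The DESeq2 call was lost without vehicle replicate 1 (adjusted p = 0.0754) or without vehicle replicate 2 (adjusted p = 0.138).

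Tgfb2 (ENSMUSG00000039239), the ligand whose signalling depends most on the co-receptor betaglycan and which mice need to form heart valves and outflow vessels, was the scarcest of the 3 per length of transcript. It was at 9.55, 13.5 and 18.0 CPM in setanaxib replicates 1 to 3, against 21.8, 22.4 and 25.9 CPM in vehicle replicates 1 to 3. All 3 setanaxib values were lower, and they ranged more widely than the vehicle values. The means of 13.7 ± 4.24 CPM with setanaxib and 23.4 ± 2.20 CPM with vehicle (SD, n = 3 each) gave a log2 fold change of -0.77 (SE 0.23). Its adjusted p was 0.464 by edgeR and 0.0676 by DESeq2. Setanaxib replicate 3 held the highest of the setanaxib values, and without it the log2 fold change was -1.02, with an adjusted p of 3.9e-05 by DESeq2 and 0.160 by edgeR. Without setanaxib replicate 1 the log2 fold change was -0.57, and DESeq2 also called it (adjusted p = 0.0431).

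Tgfb3 (ENSMUSG00000021253), a ligand that mice need for closure of the palate, was at 19.1, 23.3 and 27.3 CPM in setanaxib replicates 1 to 3, against 42.5, 28.5 and 44.6 CPM in vehicle replicates 1 to 3. The groups did not overlap, but vehicle replicate 2 lay close to setanaxib replicate 3. Means were 23.2 ± 4.12 CPM with setanaxib and 38.5 ± 8.79 CPM with vehicle (SD, n = 3 each), a log2 fold change of -0.73 (SE 0.21). Neither test called it, with an adjusted p of 0.451 by edgeR and 0.0526 by DESeq2. DESeq2 called it without setanaxib replicate 3 (adjusted p = 0.0104) or without vehicle replicate 2 (adjusted p = 0.00076), and the log2 fold change was then -0.86 or -0.91. The ligands as a class are best read per length of transcript, the scale on which genes can be added. Their summed level was 17.5, 22.4 and 23.6 CPM per kilobase in setanaxib replicates 1 to 3, against 33.0, 31.3 and 34.3 CPM per kilobase in vehicle replicates 1 to 3. By the longest coding transcript, Tgfb1 supplied 51.0% to 57.5% of that sum in setanaxib libraries and 46.7% to 59.2% in vehicle libraries. Its share thus overlapped while the sum did not, which follows from each of the 3 ligands being lower throughout. With all exons joined instead, Tgfb1 supplied 31.7% to 37.6% in setanaxib libraries and 28.1% to 39.5% in vehicle libraries. On that length Tgfb3 led in every library, at 46.6% to 49.3% in setanaxib libraries and 41.5% to 54.0% in vehicle libraries.

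Ltbp2 (ENSMUSG00000002020) had the largest difference of the 10 genes. Its protein is built like the other binding proteins but does not bind latent TGF-beta, and it is known as a partner of fibrillin-1 in microfibrils. Levels were 8.55, 17.0 and 10.7 CPM in setanaxib replicates 1 to 3, against 51.9, 23.4 and 76.5 CPM in vehicle replicates 1 to 3. Vehicle libraries differed among themselves by more than setanaxib libraries did, and vehicle replicate 2 was the nearest to the setanaxib group. Means were 12.1 ± 4.40 CPM with setanaxib and 50.6 ± 26.6 CPM with vehicle (SD, n = 3 each), a log2 fold change of -2.07 (SE 0.47). The adjusted p was 0.370 by edgeR and 0.000496 by DESeq2, and Ltbp2 was the only member that DESeq2 also called in each of the 6 fits that left out a library, with adjusted p-values of 7.1e-08 to 0.0443. Over those fits edgeR's log2 fold change lay between -2.41 and -1.64.

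Ltbp1 (ENSMUSG00000001870), which tethers the latent complex to the matrix, was higher with setanaxib by a small margin. It was at 72.7, 72.5 and 91.3 CPM in setanaxib replicates 1 to 3, against 68.7, 65.5 and 64.3 CPM in vehicle replicates 1 to 3. Setanaxib replicate 3 was the highest of the 6: the log2 fold change was 0.25 (SE 0.12, adjusted p = 0.633 by edgeR and 0.436 by DESeq2) with all libraries and 0.14 without that one. Ltbp1 and Ltbp2 thus had differences of opposite sign.

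Ltbp4 (ENSMUSG00000040488), a binding protein that also helps to assemble elastic fibres, was by far the most abundant member per length of transcript. It was at 435, 436 and 675 CPM in setanaxib replicates 1 to 3, against 594, 503 and 633 CPM in vehicle replicates 1 to 3. Setanaxib replicate 3 was the highest of the 6 libraries and the other setanaxib libraries the lowest, so the groups overlapped. The log2 fold change was -0.16 (SE 0.20, adjusted p = 0.888 by edgeR) with all libraries. Without setanaxib replicate 3 it was -0.40, with an adjusted p of 0.0243 by DESeq2 and 0.265 by edgeR. Ltbp3 (ENSMUSG00000024940), a binding protein that mice need for normal bone and teeth, had the same layout. It was at 47.9, 56.5 and 90.4 CPM in setanaxib replicates 1 to 3, against 79.6, 59.4 and 82.6 CPM in vehicle replicates 1 to 3. Its log2 fold change was -0.19 (SE 0.26, adjusted p = 0.902 by edgeR) with all libraries, -0.50 without setanaxib replicate 3 and -0.01 without setanaxib replicate 1.

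The makeup of the binding proteins was set mainly by Ltbp4 in both groups. Of the summed level per kilobase of the 4 genes, Ltbp4 made up 76.9% to 79.3% in setanaxib libraries and 76.1% to 79.1% in vehicle libraries. Ltbp2 made up 1.24%, 2.39% and 1.001% in setanaxib replicates 1 to 3, against 5.35%, 2.93% and 7.32% in vehicle replicates 1 to 3. Ltbp1 made up 10.7%, 10.3% and 8.66% in setanaxib replicates 1 to 3, against 7.17%, 8.31% and 6.24% in vehicle replicates 1 to 3. Both shares kept the groups apart, in opposite directions, while the share of Ltbp3 overlapped.

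Tgfbr3 (ENSMUSG00000029287) encodes betaglycan, a co-receptor without kinase activity that presents ligand to the type II receptor and, when shed, can trap ligand instead. It was at 105, 94.0 and 131 CPM in setanaxib replicates 1 to 3, against 76.4, 65.4 and 77.3 CPM in vehicle replicates 1 to 3. Every setanaxib library lay above every vehicle library, with the top value in setanaxib replicate 3. Means were 110 ± 19.1 CPM with setanaxib and 73.0 ± 6.58 CPM with vehicle (SD, n = 3 each), a log2 fold change of 0.59 (SE 0.15). The adjusted p was 0.396 by edgeR and 0.0155 by DESeq2. Without setanaxib replicate 3 the log2 fold change was 0.45, and the groups still did not overlap. The DESeq2 call was lost when any of vehicle replicates 1, 2 and 3 was left out, with adjusted p-values of 0.124, 0.194 and 0.0759.

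The kinase receptors, which carry the signal into the cell, did not show this difference. Tgfbr1 (ENSMUSG00000007613), the type I receptor, was at 31.3, 22.9 and 22.8 CPM in setanaxib replicates 1 to 3, against 23.0, 24.6 and 27.1 CPM in vehicle replicates 1 to 3. Its log2 fold change of 0.04 (SE 0.15, adjusted p = 0.971 by edgeR) rested on setanaxib replicate 1, without which it was -0.13, and it was 0.13 without setanaxib replicate 3. Tgfbr2 (ENSMUSG00000032440), the type II receptor, was at 56.7, 61.2 and 84.8 CPM in setanaxib replicates 1 to 3, against 70.2, 68.1 and 74.3 CPM in vehicle replicates 1 to 3. Here setanaxib replicate 3 lay above all vehicle libraries and both other setanaxib libraries below them. The log2 fold change was -0.07 (SE 0.16, adjusted p = 0.949 by edgeR) with all libraries. Without setanaxib replicate 3 it was -0.26, with an adjusted p of 0.0245 by DESeq2 and 0.274 by edgeR, and without setanaxib replicate 1 it was 0.04. A p-value above the threshold does not show that these receptors were equal in both groups.

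**Figure D2:**
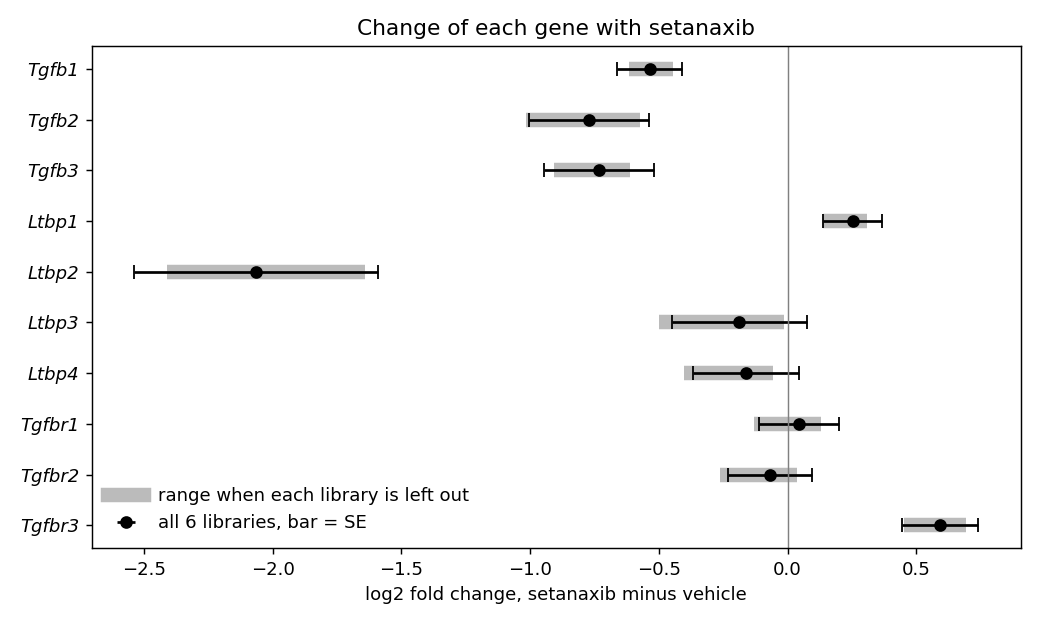
Log2 fold change (setanaxib minus vehicle, edgeR) of each of the 10 genes on the horizontal axis, with bars of 1 SE around the estimate from all 6 libraries; grey bands give the range when each library in turn is left out. The bands of the 3 ligands and Ltbp2 stay below 0 and those of Ltbp1 and Tgfbr3 above 0, while the bands of Tgfbr1 and Tgfbr2 cross 0.

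Setanaxib replicate 3 held the highest setanaxib value for 7 of the 10 members, and for Ltbp3, Ltbp4 and Tgfbr2 it alone made the groups overlap. Without it, 7 members were lower in every remaining setanaxib library than in every vehicle library, namely the 4 above together with Ltbp3, Ltbp4 and Tgfbr2. The same was then true of 18.4% of all genes. The 2 higher members, Ltbp1 and Tgfbr3, were the same with any 1 library left out. The part that the lung, atrial or adipose RNA of this library had in these values was not tested.

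Ratios between members within a library do not depend on how libraries are scaled to each other, and 8 were computed, chosen after the values had been seen and so given without a test. On levels per kilobase, the summed ligands stood at 2.503, 2.96 and 2.26 times Tgfbr2 in setanaxib replicates 1 to 3, against 3.80, 3.72 and 3.73 times in vehicle replicates 1 to 3. Tgfbr3 stood at 2.47, 2.04 and 2.06 times Tgfbr2 in setanaxib replicates 1 to 3, against 1.45, 1.28 and 1.38 times in vehicle replicates 1 to 3. Both ratios were tight within the vehicle group, and neither overlapped. Betaglycan RNA thus made up more of the receptor RNA with setanaxib, at 58.2%, 57.2% and 59.9% of the summed receptors in replicates 1 to 3, against 49.7%, 45.9% and 47.7% with vehicle. Set against the summed ligands, Tgfbr3 was at 0.987, 0.688 and 0.912 in setanaxib replicates 1 to 3 and at 0.380, 0.343 and 0.370 in vehicle replicates 1 to 3. Ltbp1 over Tgfb1 was 1.09, 0.843 and 1.14 in setanaxib replicates 1 to 3 and 0.638, 0.529 and 0.602 in vehicle replicates 1 to 3. The ratio of Tgfbr3 to Tgfbr1 was 3.18 to 5.45 in setanaxib libraries and 2.52 to 3.14 in vehicle libraries, nearly touching. Ltbp2 stood far below its relatives with setanaxib. Ltbp4 was at 32.2 to 79.3 times and Ltbp1 at 4.33 to 8.66 times the level of Ltbp2 in setanaxib libraries, against 10.4 to 27.0 times and 0.853 to 2.84 times in vehicle libraries. The ratio of Tgfbr2 to Tgfbr1, the 2 kinases, overlapped, at 1.29 to 2.65 in setanaxib libraries and 1.95 to 2.17 in vehicle libraries. Tgfbr3 over summed ligands, Ltbp1 over Tgfb1 and Ltbp1 over Ltbp2 each set a gene higher throughout over genes lower throughout. Their separation was therefore fixed by the values of those members and adds nothing to them.

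**Figure D3:**
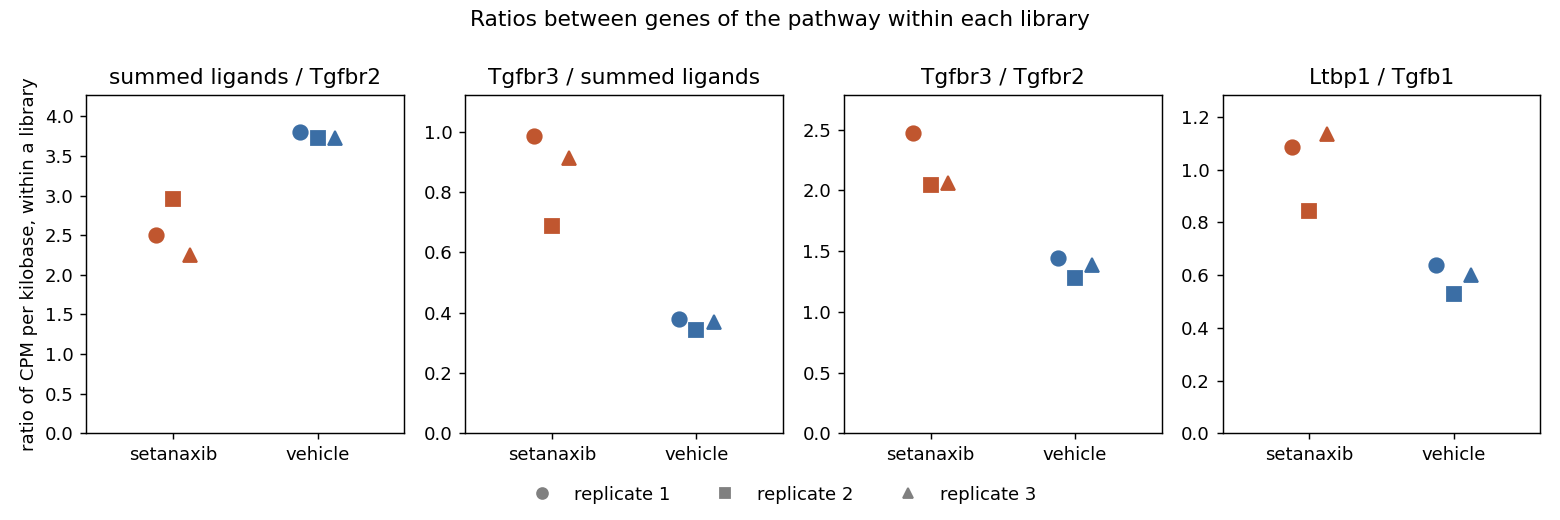
Ratios of CPM per kilobase between members within each library, for 3 setanaxib libraries (orange, left) and 3 vehicle libraries (blue, right), with marker shapes for replicate numbers and each axis starting at 0. The ratio of summed ligands to Tgfbr2 is lower in all setanaxib libraries, and the other 3 ratios are higher.

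Levels of different genes were compared per kilobase of the longest coding transcript, as group means. Ltbp4 led in both groups, at 95.7 CPM per kilobase with setanaxib and 107 CPM per kilobase with vehicle, and its lowest library stayed far above every library of any other member. With setanaxib, Tgfbr3 followed at 18.1, then Ltbp3 at 12.5, Ltbp1 at 11.8, Tgfb1 at 11.7, Tgfbr2 at 8.35, Tgfb3 at 6.86, Tgfbr1 at 4.46, Tgfb2 at 2.68 and Ltbp2 at 1.79 CPM per kilobase. With vehicle, Tgfb1 followed at 16.9, then Ltbp3 at 14.2, Tgfbr3 at 12.0, Tgfb3 at 11.4, Ltbp1 at 9.92, Tgfbr2 at 8.76, Ltbp2 at 7.48, Tgfb2 at 4.56 and Tgfbr1 at 4.32 CPM per kilobase. Betaglycan was thus second with setanaxib, where Ltbp2 was last, and Tgfb1 was second with vehicle, where the type I receptor was last. Below Ltbp4, the libraries of neighbours in the order overlapped except between Tgfb3, Tgfbr1 and Tgfb2 with setanaxib, and between Tgfb1 and Ltbp3 and between Ltbp1 and Tgfbr2 with vehicle. The order also depends on the transcript taken: averaged over the 6 libraries, Tgfb1 was at place 3 by this length and at place 7 with all its exons joined.

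Some members share sequence with neighbouring genes, and whether reads were counted by strand is not stated in the labels or headers. In the GENCODE M21 annotation, exons of Ltbp2 overlap those of the antisense gene D030025P21Rik over 764 bases, those of Tgfb2 overlap Gm29491 over 124 bases, and those of Tgfb3 overlap Gm48008 over 257 bases and Gm37804 over 163 bases. None of the overlapping genes of Ltbp2 and Tgfb2 passed the filter on low counts, and Gm37804 was at 0 to 0.294 CPM. Tgfbr3 overlaps the same-strand gene Gm43422 over 297 exonic bases, and that gene was at 1.03 to 4.03 CPM. Tgfb1, Ltbp4, Tgfbr1 and Tgfbr2 had no overlapping gene there.

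The genes whose pattern over the 6 libraries was most like that of each member were found by the smallest mean absolute difference in log2 CPM, each gene being centred on its own mean, among 12293 expressed genes. For Ltbp2 the nearest were Thbs4, a thrombospondin of injured muscle and heart, with a mean difference of 0.22, and Postn, which encodes periostin of activated fibroblasts, at 0.34. Thbs4 was at 5.45, 8.75 and 3.60 CPM in setanaxib replicates 1 to 3, against 29.9, 13.7 and 38.4 CPM in vehicle replicates 1 to 3, and so had its lowest vehicle value in the same library as Ltbp2. For Tgfb3 the nearest genes were Serpinf1, Svep1 and Dact3 (0.07 to 0.08). They were Fdps, Nhlrc1 and Parp9 for Tgfb1 (0.04 each), and Adcy7, Arhgap45 and Fbxl19 for Tgfb2 (0.07 to 0.09). For the higher genes they were Nrip1, Pla2r1 and Stx19 for Tgfbr3 (0.07 each) and Rgmb, Atm and Ghr for Ltbp1 (0.03 each). Those of the overlapping genes were Timp2, Lrp1 and Zfp61 for Ltbp3, Gpsm2, Bcr and Gpc6 for Ltbp4, Acbd6, Zfp623 and Tsc22d2 for Tgfbr1, and Zfp426, Scpep1 and Zfp414 for Tgfbr2. With 6 libraries many genes can share a pattern, and the likeness is a description.

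Genes that store, display or release the latent complex were mostly lower with setanaxib by point estimate. The list holds integrins and proteases that free the ligand, but also the matrix fibres that store it (Fbn1 and Fn1) and the surface proteins that display it (Nrros and Lrrc32). Of its 18 genes, 17 were tested, and Plg, the plasmin precursor, did not pass the filter. Log2 fold changes were below 0 for 15 and above 0 for 2, with a median of -0.32. Over all 20472 genes tested, 9908 were below 0. None of the list passed edgeR, and 6 were lower at an unadjusted p below 0.05 (beside 4.69% of all genes). DESeq2 called 2 (beside 2.43%), and 6 lay lower in every setanaxib library than in every vehicle library (beside 9.46%). None was higher throughout (beside 8.11%). Without setanaxib replicate 3, 11 of the 17 were lower throughout, as were 18.4% of all genes. Without vehicle replicate 2 it was 9 of the 17, and 13.1% of all genes. Itgb6, the integrin subunit whose pairing with alpha V frees TGF-beta by pulling on its propeptide, was at 11.0, 12.5 and 14.1 CPM in setanaxib replicates 1 to 3, against 23.6, 26.3 and 20.1 CPM in vehicle replicates 1 to 3. Its log2 fold change was -0.90 (SE 0.15), with an adjusted p of 0.234 by edgeR and 1.5e-05 by DESeq2. Fbn1, which encodes the fibrillin-1 fibres that hold the binding proteins, was at 122, 150 and 143 CPM in setanaxib replicates 1 to 3, against 209, 215 and 211 CPM in vehicle replicates 1 to 3. The 3 vehicle libraries were almost level, and the log2 fold change was -0.62 (SE 0.10, adjusted p = 0.265 by edgeR and 1.3e-06 by DESeq2). Nrros, which displays latent TGF-beta on macrophages and microglia, had a log2 fold change of -0.74 (SE 0.27) and an adjusted p of 0.540 by edgeR and 0.201 by DESeq2. Furin, the protease that cuts the propeptide, overlapped between groups, at 167 to 211 CPM in setanaxib libraries and 164 to 179 CPM in vehicle libraries.

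Among 11 receptor partners and ligand traps, all tested, 8 log2 fold changes were below 0 and 3 above, with a median of -0.17. None passed edgeR, and 4 were lower at an unadjusted p below 0.05 (beside 4.69% of all genes). DESeq2 called 1 (beside 2.43%), and 4 lay lower in every setanaxib library (beside 9.46%) with none higher throughout (beside 8.11%). Acvrl1, an alternative type I receptor of endothelial cells, was at 17.5, 23.2 and 19.5 CPM in setanaxib replicates 1 to 3, against 28.9, 29.7 and 30.6 CPM in vehicle replicates 1 to 3. Its log2 fold change was -0.57 (SE 0.12, adjusted p = 0.355 by edgeR and 0.00339 by DESeq2). Eng, the co-receptor endoglin that works beside it, overlapped, with a log2 fold change of -0.14 (SE 0.33). Eng was at 163, 225 and 416 CPM in setanaxib replicates 1 to 3, against 297, 306 and 282 CPM in vehicle replicates 1 to 3. Setanaxib replicate 3 alone made these groups overlap. The small proteoglycans Bgn and Aspn, which bind TGF-beta in the matrix, were lower throughout: the log2 fold change of Bgn was -0.75 (SE 0.25, adjusted p = 0.500 by edgeR), and that of Aspn was -0.84 (SE 0.30, adjusted p = 0.530 by edgeR).

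The SMAD proteins and their regulators were balanced, with 7 of 14 below 0 and 7 above, and a median of -0.00. None was called by edgeR or DESeq2, and 2 were lower at an unadjusted edgeR p below 0.05 (beside 4.69% of all genes). Lower throughout were 3 genes (beside 9.46% of all genes), or 6 without setanaxib replicate 3 (beside 18.4%), and 1 was higher throughout (beside 8.11%). Smad2 and Smad3, which the receptor phosphorylates, and Smad7, which blocks it, overlapped between groups. For Smad3 and Smad7, setanaxib replicate 3 alone made the groups overlap. Smad3 was at 19.6, 22.6 and 34.7 CPM in setanaxib replicates 1 to 3, against 28.2, 27.3 and 29.8 CPM in vehicle replicates 1 to 3. Smad7 was at 21.1, 33.1 and 45.3 CPM in setanaxib replicates 1 to 3, against 37.7, 38.0 and 39.0 CPM in vehicle replicates 1 to 3. Pmepa1, a TGF-beta induced gene that in turn limits SMAD signalling, was at 36.6, 26.1 and 26.9 CPM in setanaxib replicates 1 to 3, against 46.7, 39.2 and 45.5 CPM in vehicle replicates 1 to 3. Its log2 fold change was -0.55 (SE 0.16), with an adjusted p of 0.450 by edgeR and 0.0803 by DESeq2. Smurf2, a ubiquitin ligase that degrades the receptors, had -0.24 (SE 0.08, adjusted p = 0.494 by edgeR), and Skil, a repressor of SMAD targets, had -0.31 (SE 0.14, adjusted p = 0.615 by edgeR), or -0.18 without setanaxib replicate 3. Smad4, the partner shared by all receptor SMADs, was the 1 higher gene, at 0.20 (SE 0.09).

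Genes known to respond to TGF-beta in fibroblasts had the lowest median of the pathway lists. Of 16 genes, Il11 was at 0 in all libraries and 15 were tested. All 15 log2 fold changes were below 0, with a median of -0.78. None passed edgeR, and 5 were lower at an unadjusted p below 0.05 (beside 4.69% of all genes). DESeq2 called 4 (beside 2.43%), and 6 lay lower in every setanaxib library (beside 9.46%) with none higher throughout (beside 8.11%). Lower throughout were 10 genes without vehicle replicate 2, beside 13.1% of all genes, and 8 without setanaxib replicate 3, beside 18.4%. Postn was at 37.8, 54.0 and 43.3 CPM in setanaxib replicates 1 to 3, against 134, 88.4 and 154 CPM in vehicle replicates 1 to 3, and its log2 fold change was -1.48 (SE 0.24, adjusted p = 0.234 by edgeR and 1.2e-06 by DESeq2). Timp1, an inhibitor of matrix proteases, had -1.67 (SE 0.43, adjusted p = 0.416 by edgeR and 0.0108 by DESeq2). The fibrillar collagen genes Col3a1 and Col1a2 had -0.94 (SE 0.25, adjusted p = 0.420 by edgeR and 0.0120 by DESeq2) and -0.78 (SE 0.21, adjusted p = 0.432 by edgeR and 0.0203 by DESeq2). By contrast, Ccn2, a direct SMAD target, overlapped between groups, with a log2 fold change of -0.39 (SE 0.24). Nox4 is a gene that TGF-beta induces in fibroblasts, and the series describes setanaxib as an inhibitor of its enzyme. The gene was at 1.06, 3.07 and 2.09 CPM in setanaxib replicates 1 to 3, against 2.93, 1.82 and 5.99 CPM in vehicle replicates 1 to 3, and these overlapped.

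**Figure D4:**
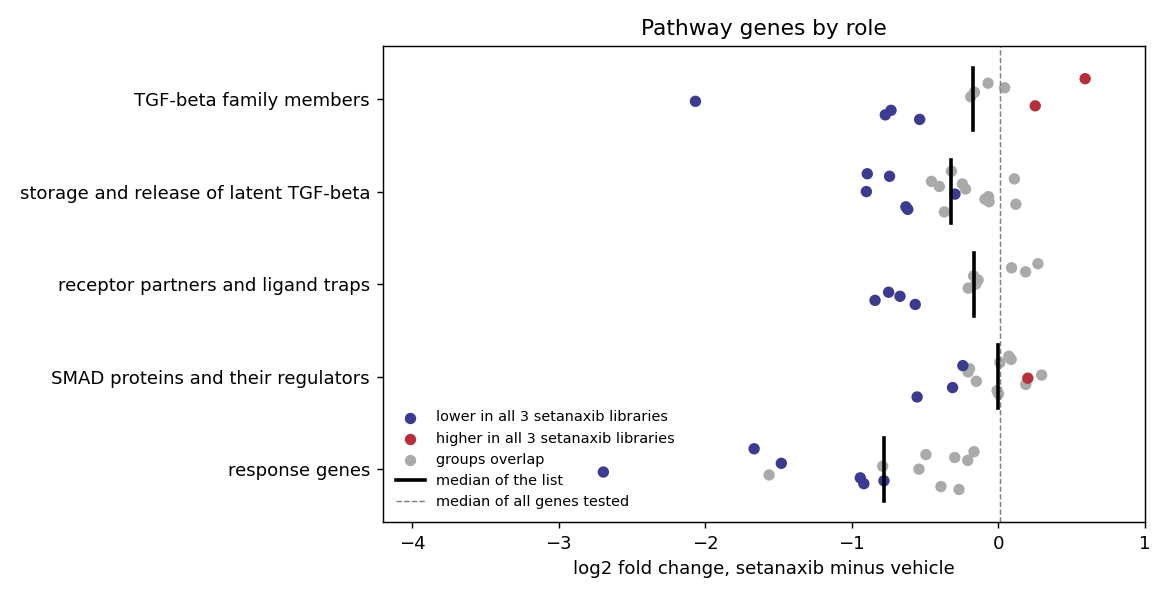
Log2 fold change (setanaxib minus vehicle) of each tested gene, 1 dot a gene, for the 10 members and the 4 pathway lists; blue and red mark genes lower or higher in all 3 setanaxib libraries than in the 3 vehicle libraries, grey marks overlap, black lines give list medians and the dashed line the median of all genes tested. Storage and release genes (median -0.32) and response genes (median -0.78) lie mostly left of the dashed line, and SMAD genes (median -0.00) lie around it.

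Markers of some cells that make TGF-beta were lower along with the ligands. All 8 macrophage markers were lower in every setanaxib library than in every vehicle library, beside 9.46% of all genes. None was at 0 throughout, and the 8 summed to 185 to 225 CPM in setanaxib libraries and 291 to 374 CPM in vehicle libraries. Fibroblast markers had log2 fold changes below 0 for 7 of 7, and 3 (Lum, Pi16 and Mfap5) were lower throughout (beside 9.46%). They summed to 429 to 625 CPM in setanaxib libraries and 520 to 729 CPM in vehicle libraries, which overlapped. The 7 markers of activated fibroblasts, among them Postn and Thbs4, were below 0 for 7 of 7 with a median of -1.56. Of these, 4 were lower throughout (beside 9.46%). Their sums of 148 to 285 CPM in setanaxib libraries and 268 to 492 CPM in vehicle libraries overlapped. The lists share genes and are not separate evidence. Postn, Cthrc1, Comp and Acta2 are also among the response genes above, and Acta2 is also a smooth muscle marker. Dcn is both a fibroblast marker and a ligand trap. Platelet markers, another source of Tgfb1, summed to 16.1 to 19.0 CPM in setanaxib libraries and 9.29 to 26.2 CPM in vehicle libraries. Smooth muscle and pericyte markers had log2 fold changes below 0 for 6 of 6, and 3 (Notch3, Cspg4 and Pdgfrb) were lower throughout (beside 9.46%). They summed to 546 to 810 CPM in setanaxib libraries and 748 to 906 CPM in vehicle libraries, which overlapped. Of 5 endothelial markers, 3 had log2 fold changes below 0 and 2 above, and 1 (Kdr) was lower throughout (beside 9.46%). The 5 summed to 529 to 813 CPM in setanaxib libraries and 672 to 773 CPM in vehicle libraries. T and NK cell markers were near the floor in both groups, with Cd3e, Cd3g and Nkg7 at 0 in all libraries. In bulk RNA, fewer cells of a type and less RNA per cell cannot be told apart, and the part these cells had in the values of the ligands, Ltbp2 or Tgfbr3 was not tested.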

How the data were processed

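RNA was sequenced from 6 heart libraries, and the deposited table holds estimated counts per gene that the authors left unscaled. Expected counts are usually rounded before testing, but these were whole numbers already. The build GRCm39 and the tools STAR 2.5.4b, featureCounts 2.0.1, FastQC 0.11.9 and DESeq2 1.42.0 are named, without roles, per the submitters' processing notes; per the file headers, names have the form of StringTie's count script. The design had assumed raw counts, and the same tests were kept.

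In R 4.3.3, genes passing edgeR's (4.0.16) filterByExpr (minimum count 10) were scaled by TMM, with factors of 0.892 to 1.19, and compared, setanaxib minus vehicle, with its two-sided quasi-likelihood F test, at a threshold of 0.05 after Benjamini-Hochberg adjustment over 20472 genes. Standard errors were derived from F. The test was checked on simulated data. CPM values are TMM-normalised, and library totals were 110803307 to 154003318. Alternatives were DESeq2 1.42.0, limma-voom 3.58.1, other scalings, no filter, no mitochondrial genes (20.5% to 30.0% of counts), and each library left out. Transcript lengths and overlaps are from GENCODE M21 on GRCm38, and the only coordinates given are those of the upstream sequences, on the same build. Likeness used log2 CPM with a prior count of 2, among genes with a mean of at least 0 and no predicted name.

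The members and lists were chosen with earlier results of these data known. Genes named are the 10 members, from each pathway list the 3 of lowest edgeR p and any called by edgeR or DESeq2, the 3 genes most like each member, and markers beside a result, except a few that are not reported here; Furin, Eng, Smad2, Smad3, Smad4, Smad7, Ccn2 and Nox4 were added after their values were seen. Replicate numbers follow record order and pair nothing.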

Additional observations from a re-analysis of the deposited data

How the results depend on the processing

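The direction of the 3 ligands, the 4 binding proteins and Tgfbr3 was the same under DESeq2, limma-voom, RLE, upper-quartile or total scaling, without the filter, without mitochondrial genes, and with any 1 library left out. Tgfbr1 and Tgfbr2 reversed with libraries left out: edgeR's log2 fold change was -0.13 to 0.13 for Tgfbr1 (below 0 without setanaxib replicate 1 or vehicle replicate 1) and -0.26 to 0.04 for Tgfbr2 (0.037 without setanaxib replicate 1). By DESeq2 the reversed values were -0.14 for Tgfbr1 without setanaxib replicate 1, -0.01 without vehicle replicate 1, and 0.031 for Tgfbr2 without setanaxib replicate 1. The cause was not tested. edgeR called 1 gene, lower with setanaxib; DESeq2 called 494, of which 310 were lower and 184 higher, limma-voom called 0 with 0 lower, and edgeR called 0 to 1, with 0 to 1 lower, with a library left out. With library totals alone, 2 members (Tgfb1 and Ltbp2) were lower throughout (beside 7.89% of all genes) and 1 (Tgfbr3) higher (beside 6.75%), against 4 and 2 with TMM. With a library left out, an alternative chosen after seeing the data, 4 to 7 members were lower throughout (beside 12.2% to 18.4% of all genes) and 2 higher (beside 11.2% to 15.7%). No scaling moved the median log2 fold change of all genes beyond 0.041. No paired analysis was possible because the labels give the groups no shared replicate numbers. Each member held at least 1088 estimated counts in every library, so that depth limits these values little.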
